A study of Homo sapiens with 9 samples.

Results

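The 7 genes followed here are tumor suppressors and regulators of the p53-RB axis (*RB1*, *E2F1*, *CDK4*, *CDKN2A*, *CDKN1A* and *MDM2*) and *STK11*, a tumor suppressor outside that axis. They were chosen by name, and the level of each was the sum of the FPKM (fragment counts scaled by transcript length and by library size) of its RefSeq entries. All 7 were among the 27860 genes of the tables, and all 7 passed the minimum mean of 1 FPKM that left 12509 genes for testing. RNA-seq was performed on DU145, an established human prostate cancer cell line, in which *FZD6*, a Frizzled receptor for Wnt ligands, was knocked down to learn how its loss changes gene expression. The 3 groups of 3 libraries were compared: control cells expressing a scrambled shRNA (scramble), cells expressing *FZD6* shRNA1 and cells expressing *FZD6* shRNA2, with no other agent named in the labels. Each group is a transduced derivative of 1 line. The labels call the 3 libraries of a group a triplicate without naming separate cultures, so p-values measure the spread between these libraries, which may be technical.

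RB holds E2F transcription factors in check until cyclin D with CDK4, and then cyclin E with CDK2, phosphorylates it and the cell enters S phase. *CDKN2A* encodes p16, an inhibitor of CDK4, and from another first exon ARF, an inhibitor of MDM2, which is the ubiquitin ligase that degrades p53. *CDKN1A* encodes p21, a CDK inhibitor and a classical p53 target, and *STK11* encodes LKB1, the kinase that activates AMPK and related kinases. DU145 is known to carry mutations in *RB1*, *CDKN2A* and *STK11* and a mutant p53, and FPKM count the RNA whether or not it encodes a working protein.

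Promoter windows of 250 bases before the RefSeq start (GRCh38.p14) are shown for *E2F1*, for *CDK4* and for both starts of *MDM2*. The promoter table matched all 7 genes with 11 windows. Those of *CDKN1A*, *CDKN2A*, *STK11* and *RB1* are not shown and hold no match to either motif named next. The genes shown are thus the members with a match. Capitals mark matches on either strand to an E2F motif (TTTCCCGC, TTTCGCGC, TTTGCCGC or TTTGGCGC), which 2.79% of all 35116 windows hold, or to the E-box CACGTG, which 6.34% hold.

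*E2F1*, chr20:33686386-33686635, minus strand: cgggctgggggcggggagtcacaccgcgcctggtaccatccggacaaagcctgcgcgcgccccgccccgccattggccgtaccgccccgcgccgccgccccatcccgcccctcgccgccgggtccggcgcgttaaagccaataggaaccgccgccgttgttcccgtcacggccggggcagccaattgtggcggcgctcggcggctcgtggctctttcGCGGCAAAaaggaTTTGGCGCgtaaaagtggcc

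*CDK4*, chr12:57752311-57752560, minus strand: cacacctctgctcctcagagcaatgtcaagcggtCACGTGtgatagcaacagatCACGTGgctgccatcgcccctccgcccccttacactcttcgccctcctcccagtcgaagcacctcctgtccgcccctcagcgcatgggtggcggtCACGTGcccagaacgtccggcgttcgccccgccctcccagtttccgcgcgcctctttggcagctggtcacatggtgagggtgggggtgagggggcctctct

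*MDM2* at the first start, chr12:68807922-68808171, plus strand: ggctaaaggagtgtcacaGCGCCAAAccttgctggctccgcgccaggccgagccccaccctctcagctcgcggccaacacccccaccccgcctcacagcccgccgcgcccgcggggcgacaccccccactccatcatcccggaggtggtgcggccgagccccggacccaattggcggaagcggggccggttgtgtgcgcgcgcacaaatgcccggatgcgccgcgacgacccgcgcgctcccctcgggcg

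*MDM2* at the second start, chr12:68808767-68809016, plus strand: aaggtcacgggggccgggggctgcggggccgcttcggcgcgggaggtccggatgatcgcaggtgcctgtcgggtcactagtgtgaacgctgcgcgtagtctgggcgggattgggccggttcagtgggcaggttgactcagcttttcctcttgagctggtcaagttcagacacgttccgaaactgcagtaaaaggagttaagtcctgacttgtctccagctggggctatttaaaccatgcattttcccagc

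The *E2F1* window holds 2 E2F matches, which begin 33 and 20 bases before the start. The *CDK4* window holds 3 E-boxes, which begin 216, 196 and 101 bases before it. The window of the first *MDM2* start holds 1 E2F match, beginning 232 bases before it, and that of the second start holds neither motif. None of these 4 windows holds an exact p53 half-site, a consensus that 5.57% of all windows match. Only exact matches were counted. A window without 1, such as that of the second *MDM2* start, can still hold a p53 site that departs from the consensus. A match is a stretch of letters and not evidence of binding.

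The groups were checked on the targeted gene and on cell type markers. *FZD6* was 20.5 ± 0.441 FPKM (SD, n = 3) in scramble, 9.83 ± 0.376 with shRNA1 and 8.11 ± 0.598 with shRNA2, which is 52.1% and 60.5% lower (log2 fold change −1.12, SE 0.085, limma adjusted p = 0.000490 for all 6 knockdown libraries). The epithelial keratin genes *KRT8*, *KRT18* and *KRT19* ranged from 152 to 296 FPKM, and the prostate kallikrein genes *KLK2* and *KLK3* stayed under 0.05 FPKM in every library. Of 8 markers of blood, endothelial cells and fibroblasts, 7 stayed under 1 FPKM, and *CD74* was 1.56 to 2.04 FPKM. The depth behind the FPKM, estimated from the Cufflinks bounds, was 32.6 to 40.9 (in units of 1e+06 fragments) per library. A single library stood apart: without shRNA2 replicate 2, the number of genes called in shRNA1 versus scramble went from 2357 to 3538 of 12509 (all groups share 1 estimate of the spread). Calls among the 7 genes that change without this library are given with and without it.

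The levels of the 7 genes in scramble spanned from 4.204 to 357 FPKM (per length, so that genes can be set side by side). *CDKN2A* was the highest with 357 ± 8.51 FPKM (SD, n = 3), above 98.5% of tested genes. *CDK4* followed at 88.1 ± 0.782 FPKM, *CDKN1A* at 31.9 ± 0.923 FPKM, *E2F1* at 23.4 ± 0.817 FPKM and *RB1* at 13.4 ± 0.896 FPKM. The lowest were *STK11*, at 5.64 ± 0.273 FPKM, and *MDM2*, at 4.204 ± 0.145 FPKM, which exceeded 34.6% and 27.4% of tested genes. Every neighboring pair in this order was apart in scramble and over all 9 libraries: the highest *MDM2* library (4.90) was still below the lowest *STK11* library (5.10), and the lowest *CDKN2A* library (325) was above the highest *CDK4* library (103). The order was therefore the same under both shRNAs. Ratios of group means over the 7 genes and 4 comparisons ran from 0.888 to 1.16, so none of the 28 ratios reached 1.2-fold, while the closest neighbors in the order, *STK11* and *MDM2*, were 1.34-fold apart in scramble.

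**Figure D1:**
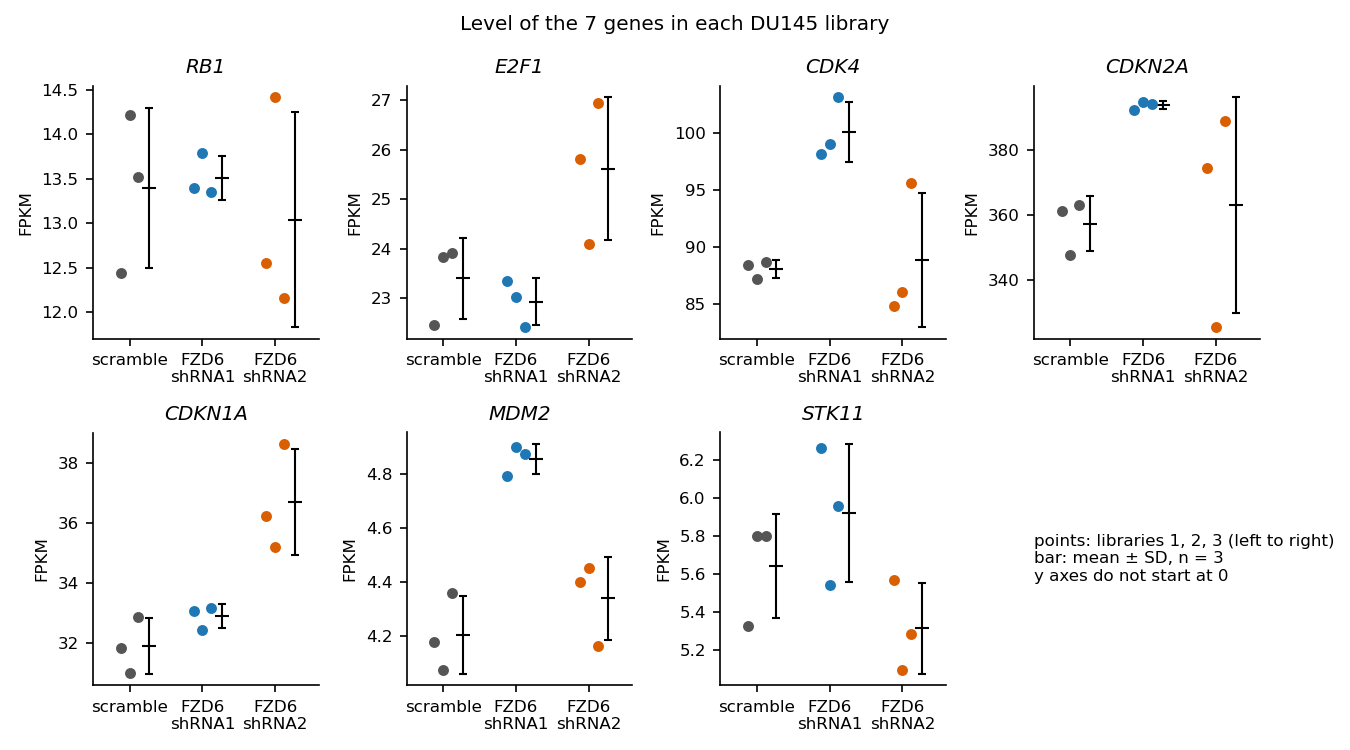
FPKM (y axes, not starting at 0) of the 7 genes in each library (points, libraries 1 to 3 from left to right) of scramble, *FZD6* shRNA1 and *FZD6* shRNA2, with mean ± SD (bars, n = 3). The shRNA1 libraries lie above all scramble libraries for *CDK4*, *CDKN2A* and *MDM2*, and the shRNA2 libraries lie above them for *E2F1* and *CDKN1A*.

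In the comparison of all 6 knockdown libraries with the 3 scramble libraries, none of the 7 genes was called (limma, adjusted p = 0.160 to 0.949), whereas 20.6% of all tested genes were. None had an unadjusted limma p under 0.05 either, although for *CDKN1A* the exact two-sided permutation test gave an unadjusted p = 0.0476. Few splits of 9 libraries into 6 and 3 exist, so this p can take few values. The groups overlapped for all 7 genes, whereas they were apart for 25.9% of tested genes. The median log2 fold change of the 7 genes was 0.08, beside 0.03 for all tested genes. In these bulk libraries fewer cells with an RNA and less of that RNA per cell cannot be told apart. Each shRNA was then compared with scramble, and the shRNAs with each other, in a model with all 3 groups. These comparisons share the scramble libraries or the shRNA libraries, and their values are given side by side.

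**Figure D2:**
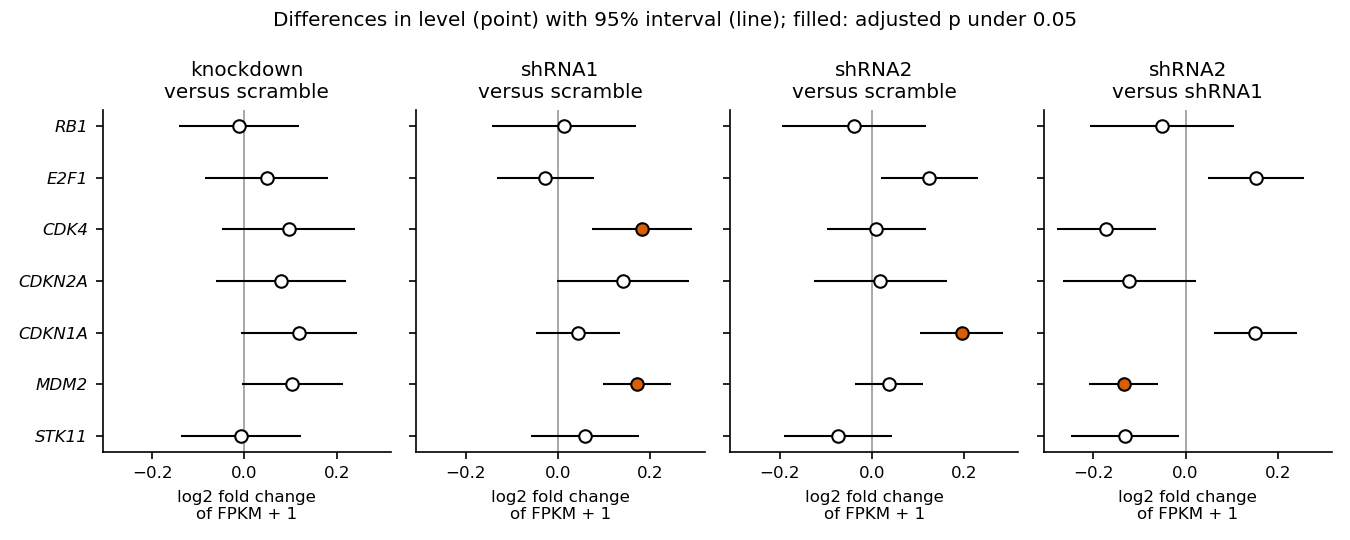
Log2 fold change of FPKM + 1 (x axes; points) with its 95% limma interval (lines) for the 7 genes in 4 comparisons, filled where the adjusted p is under 0.05. *CDK4* and *MDM2* are filled for shRNA1 versus scramble, *CDKN1A* for shRNA2 versus scramble and *MDM2* for shRNA2 versus shRNA1, and no gene is filled for knockdown versus scramble.

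With shRNA1, 2 of the 7 genes were called, *CDK4* and *MDM2*, both higher, where 18.8% of all tested genes were called (11.7% higher and 7.19% lower). The libraries were apart from scramble for 3 of the 7 genes, beside 46.8% of tested genes. With shRNA2, 1 of the 7 was called, *CDKN1A*, higher, where 26.7% of all tested genes were called (15.3% higher and 11.4% lower). Here the libraries were apart for 2 of the 7 genes, beside 40.6% of tested genes. Between shRNA2 and shRNA1, 1 of the 7 was called, *MDM2*, where 6.71% of all tested genes were called, and 5 of the 7 were apart, beside 26.4% of tested genes. The directions of these 5 were split, with *E2F1* and *CDKN1A* higher and *CDK4*, *CDKN2A* and *MDM2* lower in the shRNA2 libraries.

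*RB1*, whose product is the pocket protein that binds E2F factors, lies at chr13:48303751-48481890 (gene positions are those of RefSeq on GRCh38.p14, the assembly also called hg38) and is listed as 1 transcript. It was 12.4, 14.2 and 13.5 FPKM in scramble, 13.4, 13.8 and 13.3 FPKM with shRNA1 and 12.5, 14.4 and 12.2 FPKM with shRNA2. The ranges overlapped throughout, and the highest and the lowest library both carried shRNA2. With shRNA2 the log2 fold change was −0.04, and it was −0.11 without replicate 2, the highest library. Neither difference was called. The log2 fold change in knockdown versus scramble was −0.01 (SE 0.06, adjusted p = 0.901), and its 95% interval ran from −0.14 to 0.12. The bounds Cufflinks gave for a single *RB1* value were 3.75% to 4.39% on either side.

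*E2F1*, the activator E2F held by RB, lies at chr20:33675477-33686385 and is also listed as 1 transcript. It was 22.5, 23.8 and 23.9 FPKM in scramble, 23.3, 23.0 and 22.4 FPKM with shRNA1 and 25.8, 24.1 and 27.0 FPKM with shRNA2. All shRNA2 libraries were above all others, the lowest of them by little. The mean was 25.6 ± 1.44 FPKM (SD, n = 3) with shRNA2, which is 9.48% above scramble, and the difference was not called (log2 fold change 0.12, SE 0.05, adjusted p = 0.0777). Without shRNA2 replicate 2, the lowest of the 3, it was called (0.17, adjusted p = 0.0175). With shRNA1 the mean was 22.9 ± 0.472 FPKM, and the shRNAs differed by 0.15 on the log2 scale (adjusted p = 0.0925, and 0.0282 without that library).

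*CDK4*, the cyclin D kinase that phosphorylates RB, lies at chr12:57747727-57752310 and is listed as 1 transcript. It was 88.5, 87.2 and 88.7 FPKM in scramble, 98.2, 99.0 and 103 FPKM with shRNA1 and 84.9, 86.1 and 95.6 FPKM with shRNA2. The shRNA1 libraries were above all others. Replicate 3 was the highest library under either shRNA, and the other shRNA2 libraries were below scramble. The mean rose by 13.6% with shRNA1 (log2 fold change 0.18, SE 0.05, adjusted p = 0.0341), and it was 0.832% higher with shRNA2 (0.01, SE 0.05, adjusted p = 0.900, 95% interval −0.10 to 0.12). The difference between the shRNAs, −0.17, was not called (adjusted p = 0.0717), but it was called without shRNA2 replicate 3 (−0.22, adjusted p = 0.0148) and with the length trend removed (−0.16, adjusted p = 0.0407). The call for shRNA1 was lost without any 1 scramble or shRNA1 library (adjusted p = 0.0723 to 0.112) and with the length trend removed (0.11, adjusted p = 0.107).

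*CDKN2A* lies at chr9:21967752-21995324 and is listed as 5 transcripts. Summed over them it was 361, 348 and 363 FPKM in scramble, 393, 395 and 394 FPKM with shRNA1 and 375, 325 and 389 FPKM with shRNA2. The shRNA1 libraries were tightly grouped above the rest, while shRNA2 replicate 2 was below every scramble library. The mean was 394 ± 1.204 FPKM with shRNA1, 10.2% above scramble, and the difference was not called (log2 fold change 0.14, SE 0.06, adjusted p = 0.151). With shRNA2 the mean was 363 ± 33.3 FPKM (0.02, SE 0.06, adjusted p = 0.853). Without shRNA2 replicate 2, *CDKN2A* was called in knockdown versus scramble (0.12, adjusted p = 0.0165), with shRNA1 (0.14, adjusted p = 0.0118) and with shRNA2 (0.10, adjusted p = 0.0463). Under quantile normalization the sign turned in knockdown versus scramble (−0.02), as it did with the length trend removed (−0.03).

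Most *CDKN2A* RNA was assigned to the ARF transcript (NM_058195), and the rest mainly to the p16 transcript (NM_000077). These transcripts share exon 2, so the FPKM of each rest on how Cufflinks divided the reads of that exon. The ARF transcript was 312, 304 and 317 FPKM in scramble, 342, 346 and 346 FPKM with shRNA1 and 327, 279 and 336 FPKM with shRNA2. The p16 transcript was 47.8, 39.9 and 42.8 FPKM in scramble, 46.0, 45.2 and 44.6 FPKM with shRNA1 and 43.3, 42.9 and 50.04 FPKM with shRNA2. ARF was thus 6.51 to 7.75 times p16 in every library, at 7.18 ± 0.576 times (SD, n = 3) in scramble, 7.61 ± 0.158 with shRNA1 and 6.92 ± 0.556 with shRNA2, and the 3 ranges overlapped. Within a library, ARF took 85.8% to 87.7% of the gene's FPKM and p16 took 11.3% to 13.2%. The 3 other transcripts stayed at or below 2.54 FPKM each. The difference in the gene sum between groups lay in the ARF transcript, at 345 ± 2.07 FPKM with shRNA1 against 311 ± 6.57 FPKM in scramble (0.15, SE 0.07, transcript-level adjusted p = 0.365), while p16 was 45.3 ± 0.695 against 43.5 ± 3.97 FPKM (0.06, SE 0.08, adjusted p = 0.780). Neither difference was called.

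**Figure D3:**
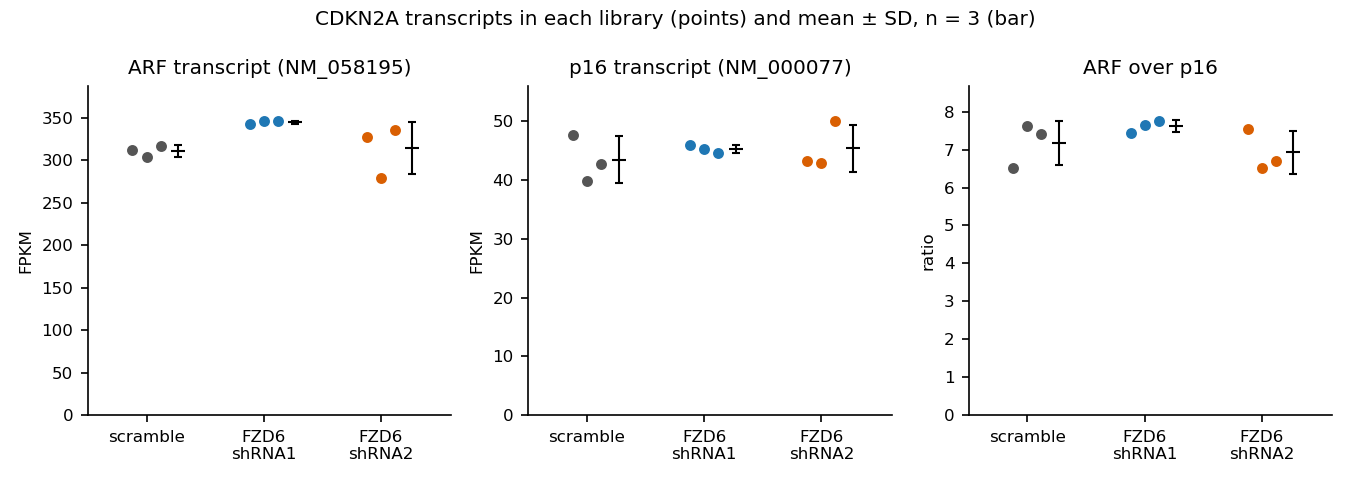
FPKM of the ARF transcript and of the p16 transcript of *CDKN2A*, and their ratio (y axes from 0), in each library (points) with mean ± SD (bars, n = 3). ARF is between 279 and 346 FPKM, p16 between 39.9 and 50.04 FPKM, and the ratio between 6.51 and 7.75.

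*CDKN1A*, which encodes p21, lies at chr6:36676463-36687332 and is listed as 12 transcripts, of which NM_000389 took 90.0% to 95.4% of the gene's FPKM. The sum was 31.9, 31.0 and 32.9 FPKM in scramble, 33.1, 32.4 and 33.2 FPKM with shRNA1 and 36.2, 35.2 and 38.6 FPKM with shRNA2. All shRNA2 libraries were above all others, whereas shRNA1 and scramble overlapped. The mean rose by 14.9% with shRNA2 to 36.7 ± 1.76 FPKM (log2 fold change 0.19, SE 0.04, adjusted p = 0.0108). With shRNA1 it was 32.9 ± 0.403 FPKM (0.04, SE 0.04, adjusted p = 0.472, 95% interval −0.05 to 0.13). The difference between the shRNAs, 0.15, missed the threshold (adjusted p = 0.0619), and it was called without shRNA2 replicate 2 (0.18, adjusted p = 0.0334) and with the length trend removed (0.16, adjusted p = 0.0195). The rise with shRNA2 was called under each of the 20 alternatives run (adjusted p = 0.00656 to 0.0407).

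*MDM2*, the ubiquitin ligase for p53 and itself a p53 target, lies at chr12:68808172-68850686 and is listed as 6 transcripts. The sum was 4.18, 4.07 and 4.36 FPKM in scramble, 4.79, 4.90 and 4.88 FPKM with shRNA1 and 4.40, 4.45 and 4.16 FPKM with shRNA2. The shRNA1 libraries were above all others, and shRNA2 overlapped scramble. The mean rose by 15.5% with shRNA1 to 4.86 ± 0.0559 FPKM (log2 fold change 0.17, SE 0.03, adjusted p = 0.0127). With shRNA2 it was 4.34 ± 0.155 FPKM (0.04, SE 0.03, adjusted p = 0.428), and the difference between the shRNAs was called (−0.13, SE 0.03, adjusted p = 0.0499). The call for shRNA1 was lost without shRNA1 replicate 3 alone (adjusted p = 0.0508). The call between the shRNAs lay at the threshold and was lost without any 1 library other than shRNA2 replicate 2, and in all under 13 of 19 alternatives (adjusted p = 0.0402 to 0.147 over all of them). *MDM2* has the longest annotated transcript of the 7 genes, 12633 bases beside a median of 2939, and with the length trend removed its log2 fold change was 0.33 with shRNA1 (adjusted p = 0.00755), 0.17 with shRNA2 (adjusted p = 0.0404, so that this difference was called) and 0.25 in knockdown versus scramble (adjusted p = 0.0360). The transcript with 75.1% of *MDM2* FPKM over the 9 libraries ends at 68845544, whereas others end at 68850684. The longest length may therefore not be that of most *MDM2* RNA measured here, and the values with the length trend removed rest on it. Across all genes with a length, the log2 fold change in knockdown versus scramble fell with length (Spearman rho −0.431 across 12295 genes, which are not independent replicates).

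The *MDM2* transcripts use either the first start, at 68808172 (2 transcripts), or the second start, at 68809017 to 68809024 (4 transcripts), where p53 is known to act. The second start took 29.3%, 27.6% and 6.64% of *MDM2* FPKM in scramble, 38.4%, 17.9% and 27.7% with shRNA1 and 34.4%, 5.71% and 19.3% with shRNA2. The share differed more within a group than between groups. NM_002392, from the first start, was 2.58 to 4.198 FPKM over the 9 libraries and was the 1 transcript of 6 that passed the minimum mean, so at this depth the split between starts could not be followed. Over the 7 genes, 10 of 27 transcripts passed, and none was called in knockdown versus scramble (adjusted p = 0.367 to 0.994), nor had any of them an unadjusted p under 0.05, whereas 1.09% of all 19780 tested transcripts were called.

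*STK11*, which encodes LKB1, lies at chr19:1205778-1228431 and is listed as 1 transcript. It was 5.33, 5.80 and 5.80 FPKM in scramble, 6.26, 5.54 and 5.96 FPKM with shRNA1 and 5.57, 5.10 and 5.29 FPKM with shRNA2. All groups overlapped. The means were 5.64 ± 0.273, 5.92 ± 0.361 and 5.32 ± 0.238 FPKM, and none of the differences was called (knockdown versus scramble −0.01, SE 0.06, adjusted p = 0.949; shRNA2 versus shRNA1 −0.13, SE 0.05, adjusted p = 0.176). The Cufflinks bounds of a single value were wider here, 8.37% to 9.30% on either side.

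For the 3 genes called in any comparison, the tested genes of at least 5 FPKM whose centred log2 values lay nearest over the 9 libraries were found among 8608 genes. For *CDK4* they were *TMEM179B*, *ADORA2B* and *FAM131B-AS2*, with a root mean square difference of 0.03 for each beside 0.10 for the distance of *CDK4* from its own mean. For *CDKN1A* they were *LARP6*, *SNAPC2* and *CYBA* (0.02 to 0.03, beside 0.09). For *MDM2* they were *CRLS1*, *FNTA* and *CCN1* (0.03 for each, beside 0.08). *LARP6*, for example, was 41.2, 41.6 and 46.5 FPKM on average in scramble, shRNA1 and shRNA2, the same order of groups as *CDKN1A*. Nearness was computed on these same libraries, so a shared order follows from the choice and is not a separate result.

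Lists of genes around the 7 were then read from the same fit. They were chosen with earlier results of these data known and are described by counts alone. In knockdown versus scramble, 13.5% of all tested genes were called higher and 7.1% lower, and the median log2 fold change was 0.03.

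**Figure D4:**
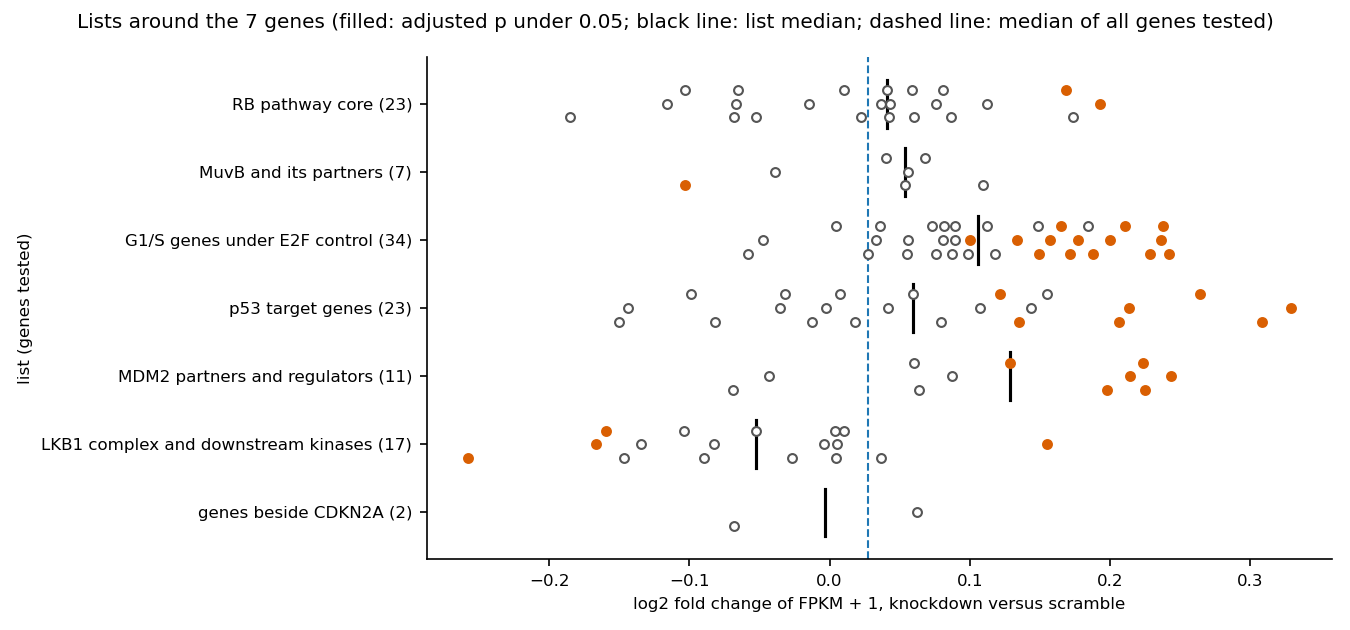
Log2 fold change of FPKM + 1 in knockdown versus scramble (x axis) of each tested gene (points) in 7 lists (y axis, with the number tested), filled where the adjusted p is under 0.05, with the list median (black line) and the median of all tested genes (dashed line, 0.03). The filled points of the G1/S list, 14 of 34, are all above 0.

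The G1/S genes under E2F control, which encode replication licensing factors, polymerase subunits and nucleotide enzymes, were measured in full (34 of 34). Of these 14 were called higher (41.2%) and none lower, the other 20 were not called, and the median log2 fold change was 0.11. *RFC4*, a subunit of the clamp loader, was 33.7 FPKM in scramble and 40.0 FPKM in knockdown (0.24, SE 0.04, adjusted p = 0.00777), a call lost with the length trend removed (0.15, adjusted p = 0.0541). *ORC1*, a subunit of the origin recognition complex, was 11.5 ± 0.157 FPKM in scramble, 13.4 ± 0.494 with shRNA1 and 14.0 ± 0.475 with shRNA2 (0.24, SE 0.03, adjusted p = 0.00371). Neither *E2F1* nor *RB1* was called in this comparison. With the length trend removed 7 of the 34 were called, a larger share than that of all genes called under that setting. Without 1 scramble library 6 to 8 were called. The shRNAs differed on 2 genes, *MCM3* and *UNG*, named after their values were seen. *MCM3*, a replicative helicase subunit, was 74.0 ± 0.735 FPKM in scramble, 78.9 ± 1.07 with shRNA1 and 63.9 ± 0.452 with shRNA2 (−0.30 between the shRNAs, adjusted p = 0.000680). *UNG*, a uracil DNA glycosylase, was 74.5, 83.9 and 66.6 FPKM (−0.33 between the shRNAs, adjusted p = 0.00141).

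Of the RB pathway core, the cyclins, CDKs, inhibitors, pocket proteins and E2F factors beside the 7, 23 of 25 genes were tested. In knockdown versus scramble 2 were called higher, none lower and 21 were not called, with a median of 0.04. *CCND1*, the cyclin D1 partner of CDK4, was 64.7 ± 1.42 FPKM in scramble, 70.7 ± 1.30 with shRNA1 and 77.6 ± 2.15 with shRNA2 (0.19, SE 0.05, adjusted p = 0.0236). *E2F6*, a repressor E2F, was 5.29, 5.93 and 6.22 FPKM (0.17, adjusted p = 0.0144). The call of *CCND1* was lost without any 1 scramble library (highest adjusted p over its alternatives 0.114), and that of *E2F6* without scramble replicate 1 or 3 (0.0669 and 0.0525). With protein-coding accessions only, *E2F6* had a log2 fold change of 0.08 (adjusted p = 0.311). Neither *CCND2*, at most 0.00423 FPKM, nor *CDK6*, 0.396 to 0.619 FPKM, passed the minimum. *CCND3*, another D-type cyclin gene and named after its values were seen, was 20.2 FPKM in scramble, 20.9 with shRNA1 and 21.9 with shRNA2 (0.08 in knockdown versus scramble, adjusted p = 0.317). *CDKN1B*, which encodes the CDK inhibitor p27 and was named after its values were seen, was 20.8 ± 0.232 FPKM in scramble, 20.4 ± 0.308 with shRNA1 and 16.2 ± 1.27 with shRNA2. It fell with shRNA2 (−0.34, adjusted p = 0.00334) and differed between the shRNAs (−0.32, adjusted p = 0.0110), the opposite direction to *CDKN1A* under the same shRNA. Of MuvB and its partners, which join pocket proteins at cell cycle promoters, all 7 were tested and 1 was called. This was *FOXM1*, the G2/M transcription factor, which fell from 77.5 ± 1.22 to 72.1 ± 1.90 FPKM (−0.10, SE 0.03, adjusted p = 0.0369), a call lost without any 1 scramble library (adjusted p = 0.0667 to 0.127) and without shRNA1 replicate 3, shRNA2 replicate 1 or shRNA2 replicate 3 (0.0584 to 0.0623).

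Of the p53 target genes other than *CDKN1A* and *MDM2*, 23 of 27 were tested, 7 were called higher (30.4%), none lower and 16 were not called, with a median of 0.06. *PMAIP1*, which encodes the apoptosis activator NOXA, was 9.22 FPKM in scramble, 10.8 with shRNA1 and 12.9 with shRNA2 (0.33, adjusted p = 0.0325). *AEN*, an exonuclease gene, was 11.4 ± 0.189 FPKM in scramble, 14.2 ± 0.276 with shRNA1 and 14.6 ± 0.363 with shRNA2 (0.31, SE 0.03, adjusted p = 0.000789), and it was called under all 20 alternatives. The call of *PMAIP1* was lost under 9 of 20 alternatives (highest adjusted p 0.148). With the length trend removed 2 of the 23 p53 targets were called, a smaller share than that of all genes called under that setting. The genes *FAS*, *GDF15*, *EDA2R* and *SPATA18* did not pass the minimum.

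Of 11 partners and regulators of MDM2, all were tested, 6 were called higher (54.5%), none lower and 5 were not called, with a median of 0.13. Those called, of which the last 3 and *RCHY1* were named after their values were seen, were *RCHY1*, another p53 ubiquitin ligase, *NPM1* and the ribosomal protein genes *RPL5*, *RPL11*, *RPL23* and *RPS7*, whose products bind MDM2. *RPL5* was 491 ± 15.1 FPKM in scramble and 582 ± 16.9 in knockdown (0.24, SE 0.03, adjusted p = 0.00309), and *NPM1* was 289 and 338 FPKM (0.22, adjusted p = 0.0215). Ribosomal protein genes and *NPM1* have many processed pseudogenes, so their FPKM are uncertain. With the length trend removed 3 of the 11 were called, beside a smaller share of all genes. The call of *NPM1* was lost without any 1 scramble library. It was also lost under quantile normalization (0.13, limma adjusted p = 0.146) and with the length trend removed (0.15, adjusted p = 0.136). Under these settings *RPL5* stayed called with a smaller log2 fold change (0.12 and 0.13, adjusted p = 0.0179 and 0.0203).

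Of the LKB1 complex and the kinases downstream of it, 17 of 18 were tested, 1 was called higher, 3 lower (17.6%) and 13 were not called, with a median of −0.05. *MARK3* was 29.2 ± 0.416 FPKM in scramble and 32.6 ± 0.600 in knockdown (0.16, adjusted p = 0.00508). *NUAK1* was 1.39 ± 0.0269 FPKM in scramble, 0.843 ± 0.0274 with shRNA1 and 1.17 ± 0.0342 with shRNA2 (−0.26, adjusted p = 0.0367), and *MARK4* was 7.17 and 6.29 FPKM (−0.17, adjusted p = 0.0259). The calls of *NUAK1* and *MARK4* were each lost without any 1 scramble library, whereas *MARK3* was called under all 20 alternatives. Both were also lost under quantile normalization (limma adjusted p = 0.184 for *NUAK1* and 0.0557 for *MARK4*) and with the length trend removed (0.135 and 0.107). That of *NUAK1* was lost without any 1 shRNA1 library as well (0.0548 to 0.0656). *PRKAA1*, which encodes a catalytic subunit of AMPK and was named after its values were seen, was 32.9 ± 1.22 FPKM in scramble, 35.3 ± 0.837 with shRNA1 and 24.9 ± 1.57 with shRNA2. It fell with shRNA2 (−0.39, adjusted p = 0.00208) and differed between the shRNAs (−0.49, adjusted p = 0.00191). *PRKAA2*, for the other catalytic subunit and also named after its values were seen, was 2.51, 2.44 and 2.62 FPKM. Its difference with shRNA2 was not called (0.04, limma adjusted p = 0.708). Of the 4 genes listed beside *CDKN2A*, 2 were tested and none was called in knockdown versus scramble. Both were named after their values were seen. *CDKN2B*, the neighboring gene for the CDK inhibitor p15, was 6.60 FPKM in scramble, 6.25 with shRNA1 and 6.26 with shRNA2. *MTAP*, which encodes an enzyme of methionine salvage, was 8.37, 7.73 and 9.96 FPKM, higher with shRNA2 than with scramble (0.23, adjusted p = 0.00553) and than with shRNA1 (0.33, adjusted p = 0.00335).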

How the data were processed

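RNA-seq of 9 DU145 libraries was analyzed, 3 in each of 3 groups. Reads of stranded mRNA libraries were aligned by the authors using STAR, Cufflinks estimated expression, and the deposited tables give FPKM with bounds for 83497 entries (a RefSeq transcript at a locus). The methods name mm10, whereas the labels name hg38 and the loci are human. Versions, and whether strand was used in counting, are not given in the sources used here, and *CDK4* overlaps *TSPAN31* on the other strand. Entries were joined by transcript and locus and summed per gene through a RefSeq table of GRCh38.p14 (72645 of 73240 accessions matched). Of the genes, 42 with a failed estimate were left out.

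Testing was limited to genes averaging 1 FPKM or more over the 9 libraries and was done on log2(FPKM + 1) with limma 3.58.1 in R 4.3.3, Benjamini-Hochberg adjustment over 12509 genes and a threshold of 0.05. Fold changes on this scale understate the change of low genes such as *MDM2*. The first model held 2 groups (knockdown, scramble) and another all 3. The methods describe a gene-by-gene test on log2 values; limma was used instead, since it pools the spread over genes. Depth is an estimate, and Cufflinks bounds cover counting error only. The fits were tested on simulated data. The length trend was fitted per library by lowess (span 0.3) on the longest GENCODE v29 transcript.

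The members and lists were chosen with earlier results of these data known. Named genes are the 7 members, up to 2 genes called higher and 2 called lower per list with the largest change in knockdown versus scramble, the 3 genes nearest to each called member, *FZD6* and the markers. Others are said to be named after their values were seen. Alternatives were another pseudocount (0.1), other filters, centring, quantile normalization, length trend, replicate block, accession or chromosome subsets, an intensity trend and leaving out each library. For the lists and list genes they were added after the data were seen. A count model was not used, because FPKM are not counts. Gene positions come from the RefSeq table. Some markers and sequences are not reported here.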

Additional observations from a re-analysis of the deposited data

Results flagged for a closer look

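The level of *CDKN2A* in the 6 knockdown libraries had a library that stood apart. That library, shRNA2 replicate 2, was 325 FPKM while the other 5 were 375 to 395 FPKM, and its gap to the nearest of them took 0.709 of the whole range, more than the 95% critical value of Dixon's test allows for 6 samples. The other members and *FZD6* had no such library. Of 8 groups of 6 examined in this way, chance flags about 1 in 20.

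The effect on *MDM2* differed between the shRNAs. The log2 difference of shRNA2 from shRNA1 was −0.134 (limma adjusted p = 0.0499), with 3 of 3 shRNA2 libraries (4.16 to 4.45 FPKM) below 3 of 3 shRNA1 libraries (4.79 to 4.90 FPKM). The call was lost under 13 of 19 alternatives, among them leaving out any 1 library other than shRNA2 replicate 2.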

How the results depend on the processing

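Leaving out each library in turn gave 997 to 3255 genes called in knockdown versus scramble (2578 with all), 917 to 3538 with shRNA1 (2357), 2097 to 4195 with shRNA2 (3335), 333 to 1172 between the shRNAs (839) and 23 to 434 transcripts (216). Of the 7 members, 0 to 1 were then called in knockdown versus scramble, 0 to 3 with shRNA1, 1 to 3 with shRNA2 and 0 to 3 between the shRNAs. The log2 fold change in knockdown versus scramble ran from −0.0608 to 0.0287 for *RB1*, from −0.0414 to 0.0166 for *STK11* and from 0.0596 to 0.122 for *CDKN2A*. With shRNA1 that of *RB1* ran from −0.0355 to 0.0541. With shRNA2 it ran from −0.107 to 0.00740 for *RB1*, from −0.0430 to 0.0414 for *CDK4* and from −0.0332 to 0.0950 for *CDKN2A*. Of the lists, 0 to 2 genes of the RB pathway core, 0 to 1 of MuvB, 6 to 17 of G1/S, 4 to 7 of the p53 targets, 3 to 6 of the MDM2 partners and 1 to 5 of the LKB1 kinases were called.

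With the length trend removed, 1569 of the 12295 genes with a length were called in knockdown versus scramble. Of the members, 1 was called there (*MDM2*, 0.246), 2 with shRNA2 and 2 between the shRNAs, but 1 with shRNA1. *RB1* turned to 0.00814, *E2F1* to −8.74e-05 and *CDKN2A* to −0.0264 in knockdown versus scramble, *CDKN1A* to −0.0203 with shRNA1, and *CDK4* and *CDKN2A* to −0.0515 and −0.0827 with shRNA2. This left 7 G1/S genes, 2 p53 targets, 3 MDM2 partners, 2 LKB1 kinases and 2 MuvB genes called. Quantile normalization gave 1 member with shRNA1 and 2 between the shRNAs, and it turned *CDKN2A* to −0.0179 in knockdown versus scramble, *RB1* and *CDKN1A* to −0.00433 and −0.00717 with shRNA1, and *CDK4* and *CDKN2A* to −0.0163 and −0.0826 with shRNA2. It called 1 gene of the RB pathway core and 3 MDM2 partners. With protein-coding accessions only, 1 gene of the RB core and 0 of MuvB were called. Median centring gave 1 member with shRNA1 and 0 between the shRNAs, and an intensity trend gave 0 between them. The filter of 5 FPKM left 1 member with shRNA1, since *MDM2* fell below it and has no value there, and it gave 1110 called transcripts. The causes of these changes were not tested.

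The replicate numbers did not pair the libraries: deviations of same-numbered libraries correlated at −0.07 to 0.11, with 1 of 9 pairs over 0.1. With the replicate block, 2377 genes were called in knockdown versus scramble, 0 members, 16 transcripts and 0 MuvB genes. Between the shRNAs the block brought *CDKN1A* past the threshold (0.15, limma adjusted p = 0.0398) and lost *MDM2* (−0.13, adjusted p = 0.0926). The replicate block with the length trend removed called 1148 genes in knockdown versus scramble and 1347 with shRNA1, and 1, 2 and 3 members with shRNA1, shRNA2 and between the shRNAs. It turned the same 6 values as the length trend alone, and it called 1 gene of the RB core, 6 G1/S genes, 2 p53 targets, 2 MDM2 partners and 2 LKB1 kinases.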
